A study of Mus musculus with 15 samples.

Results

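Hr and Klf9 are 2 genes whose transcription thyroid hormone raises directly in brain cells, and they were followed here through sorted nuclei of cortical parvalbumin neurons. Both were taken by symbol, each as 1 row in all 15 deposited count tables. They are 2 of the 46380 gene symbols that the 2 sets of tables share: the tables of the PTU and PTU_TH groups list 55341 genes and those of the Ctrl and Mut groups 48321. The rule picks them by name alone, and the pair was proposed with earlier results of these data known.

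Every mouse carried PvCre, which is active in parvalbumin (Pv) neurons, the fast-spiking inhibitory cells of the cortex, and ROSA-tomato-lox, a reporter that marks the nuclei of cells with Cre activity. Ctrl mice were untreated with the genotype PvCre ROSA-tomato-lox Thra+/+ (4 mice). Mut mice were their untreated littermates with PvCre ROSA-tomato-lox ThraAMI/+ (4 mice), in which Cre switches on TRalpha1L400R, a dominant negative form of the thyroid hormone receptor. PTU mice were Thra+/+ and received PTU, a drug that blocks thyroid hormone synthesis, in their food for 2 weeks (3 mice). PTU_TH mice were Thra+/+, received the same diet, and were injected intraperitoneally with thyroid hormones 24 hours before dissection (4 mice). The receptor allele therefore acts within Cre-expressing cells, whereas diet and injection reach the whole animal. All mice were adult, with no age in weeks given, and each library holds nuclear RNA from the cortex of 1 mouse.

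Thyroid hormone enters cells, binds nuclear receptors encoded by Thra and Thrb, and turns on genes at which the receptor without hormone recruits corepressors. Hr encodes Hairless, a nuclear corepressor that itself binds thyroid hormone receptors and related nuclear receptors. Klf9 encodes a zinc finger transcription factor of the Klf and Sp family, which binds GC-rich promoter elements; glucocorticoids also induce it. Both genes are widely used as readouts of thyroid hormone action in the brain.

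In the GENCODE M21 annotation of GRCm38, Hr (ENSMUSG00000022096.14) lies on the forward strand of chromosome 14 from 70552212 to 70573548, with 6919 bases of exon and 5 transcripts, of which 3 are coding. Klf9 (ENSMUSG00000033863.2) lies on the forward strand of chromosome 19 from 23141226 to 23168134, with 4815 bases of exon and 2 transcripts, of which 1 is coding. Neither shares exon bases with another annotated gene.

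The promoter of Klf9 is shown with a search for receptor half-sites and Klf factor boxes, since Klf9 is a hormone target and itself a Klf factor. The RefSeq promoter table on GRCm38.p6 holds Klf9, and the 250 bases before its annotated start (chr19:23140976-23141225, forward strand) read 5′ to 3′ as follows, with the CACCC box in capitals.
Klf9: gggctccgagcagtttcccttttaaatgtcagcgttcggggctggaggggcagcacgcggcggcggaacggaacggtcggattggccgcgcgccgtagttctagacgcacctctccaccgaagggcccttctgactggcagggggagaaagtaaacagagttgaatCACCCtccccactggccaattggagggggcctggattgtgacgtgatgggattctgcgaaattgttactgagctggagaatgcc
The search covered 300 bases, from 250 before the start to 50 after it, on both strands. The nuclear receptor half-site AGGTCA had 0 matches there, and 16.3% of 32851 promoters of the same length held at least 1. The GC box GGGCGG also had 0 matches, against 35.7% of promoters. The CACCC box had 1 match, starting at position -84 from the start site, and 57.5% of promoters held one. These counts describe the letters in this window only, and sequence farther from the start was not searched.

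Hr rose 11.7-fold after the hormone injection, and every injected mouse lay above every PTU mouse. Levels are given as CPM, the deposited count per 1000000 counts of the library total. In the 3 PTU mice, replicates 5, 6 and 7, Hr stood at 2.52, 5.94 and 3.29 CPM, from 39, 86 and 50 counts. In PTU_TH replicates 1 to 4 it stood at 46.3, 44.9, 43.1 and 49.5 CPM, from 559 to 860 counts. The injected mice lay within 1.15-fold of each other. The group means were 46.0 ± 2.68 CPM (SD, n = 4) and 3.92 ± 1.79 CPM (SD, n = 3). The fitted log2 fold change was 3.61 ± 0.25 (SE), with a 95% interval from 3.03 to 4.18 and an adjusted p of 0.00251 (edgeR quasi-likelihood test, Benjamini-Hochberg over 15288 genes). Hr thus rose, in a comparison in which 0.255% of the genes tested were called higher at an adjusted p under 0.05. It ranked 1 by p among all genes and 3 by the size of the rise.

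Klf9 lay higher after the injection too, by a smaller step that missed the threshold. It stood at 24.3, 30.3 and 34.7 CPM in PTU replicates 5, 6 and 7, and at 60.3, 40.9, 55.4 and 75.5 CPM in PTU_TH replicates 1 to 4. The groups did not overlap, which held for 3.43% of the genes tested in the upward direction, and the closest pair was 34.7 against 40.9 CPM. The means were 29.8 ± 5.21 CPM (SD, n = 3) and 58.0 ± 14.3 CPM (SD, n = 4), or 1.95-fold. The log2 fold change was 0.99 ± 0.16 (SE), with a 95% interval from 0.62 to 1.37, an unadjusted p of 2.07e-04 and an adjusted p of 0.0556 (edgeR). The call turns on the method: the adjusted p was 3.11e-05 with DESeq2, 0.0128 with limma-voom and quality weights, and 0.0144 in edgeR without the filter on low counts, at log2 fold changes from 0.95 to 1.00. Klf9 passed in 5 of 9 other settings. The misses, all in edgeR, were RLE scaling (0.0514), a 1 CPM filter (0.0565), 1 fit of all groups (0.0885) and upper quartile scaling (0.0938). Klf9 passed in 0 of 7 fits that left out 1 library (adjusted p from 0.0501 to 0.301, edgeR).

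**Figure D1:**
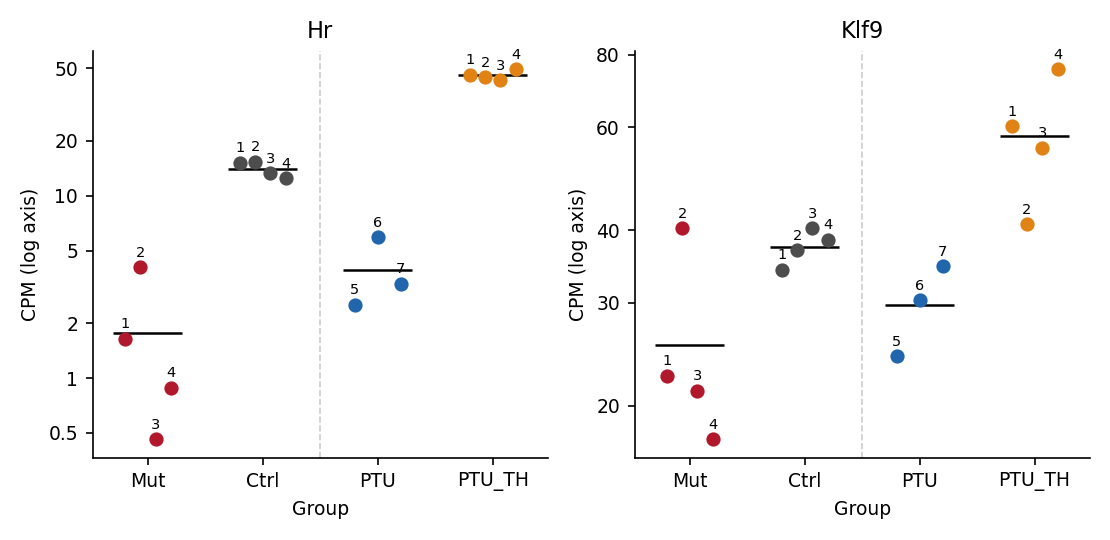
Levels of Hr and Klf9 in every library, as CPM on log axes, by group, with the replicate number above each point and a line at the group mean; the dashed line parts the 2 sets of tables. Hr in PTU_TH lies between 43.1 and 49.5 CPM, far above PTU, while Klf9 in PTU_TH spreads from 40.9 to 75.5 CPM; Mut replicate 2 is the highest of its group for both genes.

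In mice with the dominant negative receptor, Hr fell to the lowest group mean of the study. Ctrl replicates 1 to 4 stood at 15.2, 15.4, 13.3 and 12.5 CPM. Mut replicates 1 to 4 stood at 1.64, 4.07, 0.461 and 0.886 CPM, from 41, 91, 15 and 21 counts. Every Mut mouse was below every Ctrl mouse, which held for 3.33% of genes, but within Mut the highest level was 8.85-fold the lowest. The means were 14.1 ± 1.45 CPM (SD, n = 4) in Ctrl and 1.76 ± 1.62 CPM (SD, n = 4) in Mut, so that Ctrl was 7.99-fold higher. The log2 fold change was -3.06 ± 0.50 (SE), with a 95% interval from -4.16 to -1.95 and an adjusted p of 0.0259 (edgeR, 16949 genes). In this comparison 0.224% of genes were called lower. The call was lost in 6 of 8 fits that left out 1 library, namely any single Ctrl replicate, Mut replicate 1 or Mut replicate 4, at adjusted p values from 0.0782 to 0.111 (edgeR) and log2 fold changes from -3.12 to -2.86. In bulk nuclei such as these, fewer cells that express a gene and less RNA per cell cannot be told apart.

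Klf9 was lower in 3 of 4 Mut mice than in any Ctrl mouse, and the groups overlapped through the remaining one. Ctrl replicates 1 to 4 stood at 34.2, 36.9, 40.3 and 38.5 CPM, and Mut replicates 1 to 4 at 22.5, 40.3, 21.2 and 17.5 CPM. Mut replicate 2, at 40.3 CPM, was as high as the highest Ctrl mouse. The means were 37.5 ± 2.58 and 25.4 ± 10.2 CPM (SD, n = 4 each), and Ctrl was 1.48-fold higher. The log2 fold change was -0.59 ± 0.21 (SE), with a 95% interval from -1.05 to -0.12, an unadjusted p of 0.0174 and an adjusted p of 0.395 (edgeR). Without Mut replicate 2 it was -0.86 with an adjusted p of 0.0237 (edgeR). Limma-voom with quality weights on all libraries gave -0.81 with an adjusted p of 0.0126. Klf9 passed in 1 of 8 fits that left out 1 library and in 1 of 10 other settings. The highest adjusted p was 0.698 over the omissions and 0.488 over the other settings (edgeR). DESeq2 gave -0.59 with an adjusted p of 0.166.

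Mut replicate 2 was also the highest Mut mouse for Hr, at 4.07 CPM. Markers of other interneurons were higher in the whole Mut group: the sum of the 8 markers was 170.7 to 293.9 CPM in Mut and 136.4 to 161.4 CPM in Ctrl, without overlap, and Mut replicate 2 had the largest sum of all libraries. Of 6 such markers tested, 6 were positive in Mut, with a median log2 fold change of 0.59 beside 0.01 over all genes. In edgeR 0 were called and 2 had an unadjusted p under 0.05, and DESeq2 and limma-voom called Cck, a neuropeptide gene (0.84, adjusted p 0.207 in edgeR). In Mut replicate 2 the 7 astrocyte markers summed to 99.0 CPM (49.4 to 56.7 in the other Mut mice), and the 6 endothelial markers to 33.0 CPM (10.9 to 14.8). Gfap, an astrocyte marker, was at 0 in this mouse, but in every group 1 of the 7 was at 0 in all libraries. Mut replicate 2 had the lowest share of counts on genes over 100 kb in its set, 27.4%. The part of these marker differences in the Hr and Klf9 levels of Mut was not tested.

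After the injection and in Mut, 2 comparisons that share no library, the fold changes of both genes had the same sign, and those of Hr were larger. The response of Klf9 on the log2 scale was 27.6% of that of Hr after the injection and 19.2% in Mut, with Hr larger by 2.61 and 2.47 log2 units. The 2 genes had the same order of group means: Mut lowest, then PTU, Ctrl and PTU_TH. Every step of this order crosses the 2 sets of tables. The step from Mut to PTU was not called for either gene (adjusted p 0.294 for Hr and 0.663 for Klf9, edgeR). That from PTU to Ctrl was not called for Klf9 (adjusted p 0.0992, edgeR). Relative to Ctrl, Hr was at 12.5% in Mut, 27.8% in PTU and 325.9% in PTU_TH, and Klf9 was at 67.7%, 79.5% and 154.8%.

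The comparisons between the 2 sets of tables are secondary, since treatment and set cannot be told apart in them. They also share the Ctrl or the PTU mice with the comparisons above, so their values are given side by side only. PTU against Ctrl gave a log2 fold change of -1.90 ± 0.28 (SE) for Hr, with an adjusted p of 5.90e-04 (edgeR), and every PTU mouse was below every Ctrl mouse. In that comparison 12.6% of genes were called lower and 16.9% lay lower without overlap. For Klf9 it gave -0.37 ± 0.14 (SE) with an adjusted p of 0.0992, and the groups overlapped, with the highest PTU mouse at 34.7 and the lowest Ctrl mouse at 34.2 CPM.

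Injected mice exceeded untreated Ctrl mice for both genes. Hr was 3.26-fold higher, with a log2 fold change of 1.69 ± 0.13 (SE) and an adjusted p of 1.39e-06 (edgeR), where 4.72% of genes were called higher. Klf9 was 1.55-fold higher, with a log2 fold change of 0.60 ± 0.14 (SE) and an adjusted p of 0.00859. Neither gene overlapped between these groups (6.53% of genes lay higher without overlap), although the lowest PTU_TH mouse for Klf9 (40.9 CPM) was just above the highest Ctrl mouse (40.3 CPM). On the log scale Ctrl lay 52.0% of the way from PTU to PTU_TH for Hr and 34.4% for Klf9.

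Mut and PTU, the 2 groups with the lowest levels, overlapped for both genes. The log2 fold change of Hr in Mut against PTU was -1.15 ± 0.64 (SE), with a 95% interval from -2.58 to 0.28 and an adjusted p of 0.294 (edgeR), and 3.54% of genes were called lower. Klf9 differed by -0.21 ± 0.25 (SE), with a 95% interval from -0.78 to 0.35 and an adjusted p of 0.663. Without Mut replicate 2 the Hr difference was -1.91 with an adjusted p of 0.0317.

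**Figure D2:**
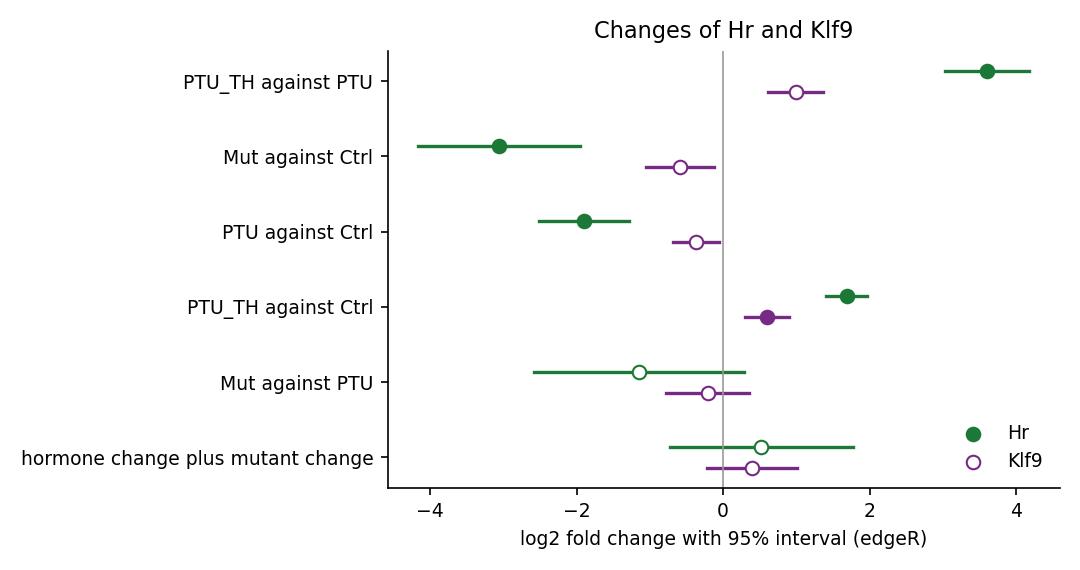
Log2 fold changes of Hr and Klf9 with 95% intervals from edgeR in each comparison; filled points passed the adjusted p threshold and open points did not. Hr runs from -3.06 in Mut against Ctrl to 3.61 in PTU_TH against PTU and Klf9 from -0.59 to 0.99; comparisons that share a group are not independent.

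Whether the fall in Mut was as large as the rise after the injection was tested as the sum of the 2 changes in 1 fit of all groups, where 0 means equal size. The sum was 0.52 ± 0.59 (SE) for Hr, with a 95% interval from -0.73 to 1.77, and 0.39 ± 0.29 (SE) for Klf9, with an interval from -0.22 to 1.01. The adjusted p was 1.00 for each (edgeR, 17317 genes, of which 0.0173% were called). A difference in size was not detectable for either gene, and a test that misses its threshold does not show equal size. For Hr the sign depended on Mut replicate 2: without it the sum was -0.24.

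Within single libraries the balance of the 2 genes shifted with the group. The log2 ratio of Hr to Klf9, each as CPM + 1, was -0.38, 0.13, -0.35 and -0.60 in PTU_TH replicates 1 to 4 and -2.85, -2.17 and -3.06 in PTU replicates 5 to 7. It was -1.12, -1.21, -1.53 and -1.55 in Ctrl and -3.16, -3.03, -3.93 and -3.29 in Mut. In Mut replicates 3 and 4 Hr itself, at 0.461 and 0.886 CPM, was below the added 1, so the size of those ratios depends on it. The ratio did not overlap between PTU and PTU_TH, nor between Ctrl and Mut, where Klf9 alone did overlap. Group means were -0.30 ± 0.31 (SD, n = 4) in PTU_TH, -2.69 ± 0.46 (n = 3) in PTU, -1.35 ± 0.22 (n = 4) in Ctrl and -3.35 ± 0.40 (n = 4) in Mut. Mut replicate 2 had the highest ratio of its group.

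**Figure D3:**
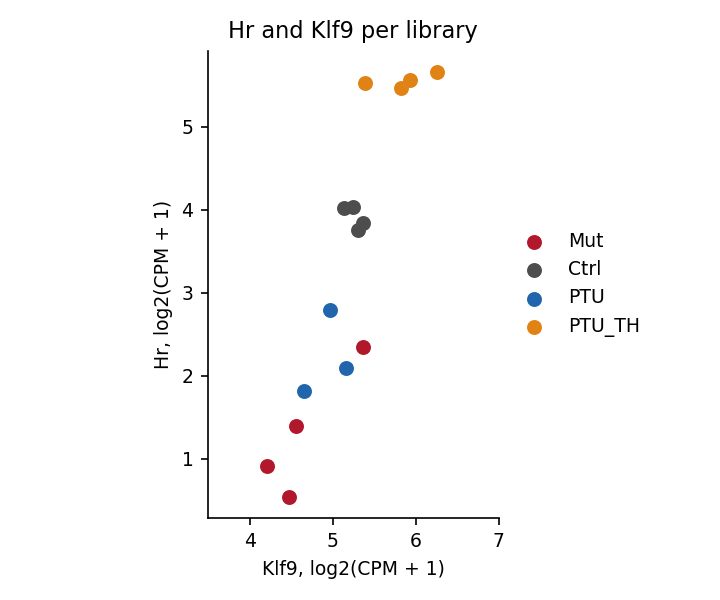
Hr against Klf9 in each of the 15 libraries, both as log2(CPM + 1) on axes of equal scale, coloured by group. The points spread much farther along the Hr axis than along the Klf9 axis, and Mut and PTU lie below Ctrl and PTU_TH on the Hr axis.

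The spread between mice differed by gene and group. Hr had a coefficient of variation of 5.83% in PTU_TH and 10.3% in Ctrl, but 45.7% in PTU and 91.5% in Mut, where counting error alone gives 13.6% and 18.4%. Klf9 had 24.6%, 6.90%, 17.5% and 40.2% in the same order, with counting errors of 3.29% to 4.76%. Single mice carried part of this spread. Without Mut replicate 2 it was 12.9% for Klf9 and 59.9% for Hr in Mut, and without PTU replicate 6 it was 18.7% for Hr in PTU. Without PTU replicate 5, Ctrl replicate 1 and PTU_TH replicate 2 it was 9.53%, 4.36% and 16.4% for Klf9 in those groups, and without PTU_TH replicate 4 it was 3.49% for Hr in PTU_TH. Whichever mouse was left out, Hr varied less than Klf9 in PTU_TH and more in Mut. The replicates ranked differently for the 2 genes in PTU: replicate 5 was lowest for both, but replicate 6 was highest for Hr and replicate 7 for Klf9. In PTU_TH replicate 4 was highest for both, and in Ctrl replicate 2 was highest for Hr and replicate 3 for Klf9.

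Per length, Klf9 was the more abundant transcript in each of the 15 libraries. As CPM per kilobase of exon (RPKM), Klf9 was at 7.78 ± 0.537 (SD, n = 4) in Ctrl and Hr at 2.04 ± 0.209. After the injection the levels were 12.05 ± 2.97 for Klf9 and 6.64 ± 0.387 for Hr (SD, n = 4), the closest of the 4 groups. In Mut they were 5.27 ± 2.12 and 0.255 ± 0.233 (SD, n = 4), and in PTU 6.19 ± 1.08 and 0.567 ± 0.259 (SD, n = 3). On this scale Hr exceeded 65.7% of genes with counts in PTU_TH and 34.4% in PTU, and 53.3% in Ctrl and 31.4% in Mut. Klf9 exceeded 77.7% and 63.3%, and 72.7% and 65.4%, in the same order. These shares can be compared only within a set of tables. They rank over 20422 and 20038 genes in PTU_TH and PTU, but over 23846 and 23856 in Ctrl and Mut. The median RPKM of those genes was 2.37, 2.69, 1.48 and 1.55.

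Library totals ran from 12957838 to 19141683 counts in PTU and PTU_TH and from 22333742 to 32571175 in Ctrl and Mut, and no 2 libraries of a group agreed within counting noise. The sorted nuclei carried Pv neuron markers, of which 11 of 12 had counts (Cox6a2 was at 0 in every library), with sums from 6543.0 to 10600.3 CPM against 287.7 to 456.8 for excitatory neuron markers and 4.01 to 21.1 for microglia. In Mut the Pv markers did not move one way: of 11 tested, 5 were positive and 6 negative, with a median log2 fold change of -0.01, and their sum was 9075.6 to 10600.3 CPM in Mut and 8040.2 to 10187.7 CPM in Ctrl. Tac1 was the marker called by edgeR, and it was higher in Mut (1.17, adjusted p 0.0243), a call kept in 1 of 8 omissions of 1 library. Pvalb itself was lower, at 63.8 to 95.8 CPM in Mut and 110.2 to 135.8 CPM in Ctrl. It was called by DESeq2 and limma-voom and not by edgeR (-0.63, adjusted p 0.0780). Syt2 was also called by DESeq2 and limma-voom, and Kcnc2 by limma-voom. In Mut 6 of the 11 had an unadjusted p under 0.05 in edgeR, where 8.74% of all genes had such a p. After the injection 7 of the 11 were positive, with a median of 0.11. Then 0 were called by edgeR or limma-voom, 3 had an unadjusted p under 0.05 in edgeR, DESeq2 called Kcnc1, and Pvalb was at 0.47 (adjusted p 0.277, edgeR). The part of Pv marker levels in the Hr and Klf9 results was not tested.

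Markers of other cell types gave 0 calls by edgeR in either comparison; at an unadjusted p under 0.05 there were 2 excitatory markers after the injection, and 2 of other interneurons and 2 of oligodendrocytes in Mut. After the injection 8 of 9 excitatory neuron markers were negative (median log2 fold change -0.29), as were 5 of 6 markers of other interneurons (-0.35), 5 of 6 of astrocytes (-0.29) and 7 of 8 of oligodendrocytes (-0.22), beside a median of 0.00 over all genes. Of microglia 3 of 6 were negative (0.16) and of endothelial cells 3 of 5 (-0.07). In Mut, 3 of 9 excitatory markers were negative (0.15), 4 of 6 of astrocytes (-0.21), 4 of 8 of oligodendrocytes (0.09), 3 of 5 of microglia (-0.06) and 2 of 4 of endothelial cells (0.03). DESeq2 and limma-voom also called 0 of these, other than Cck in Mut. The part of these levels in the results was not tested.

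Thra, the gene of the altered allele, was lower in Mut, at 29.0 to 37.4 CPM against 48.2 to 62.8 in Ctrl (log2 fold change -0.84 ± 0.14 SE, adjusted p 0.0280, edgeR). That call was lost when any 1 of the Ctrl replicates, Mut replicate 1 or Mut replicate 4 was left out, with the highest adjusted p, 0.137, without Ctrl replicate 4. The tables do not tell the 2 alleles apart.

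Y-linked counts and the share of counts on long genes also varied between libraries of a group. The summed level of the Y-linked genes Ddx3y, Eif2s3y, Kdm5d and Uty was above a threshold of 50 CPM, at 292.0 to 475.5 CPM, in PTU_TH replicates 3 and 4, PTU replicates 6 and 7, Ctrl replicate 2 and Mut replicates 1, 2 and 3. It was 0 in the other PTU and PTU_TH libraries and 2.44 to 3.19 CPM in the other Ctrl and Mut libraries. Among libraries below the threshold, Hr was 18.1-fold higher in PTU_TH than in PTU (2 mice against 1) and 15.4-fold higher in Ctrl than in Mut (3 against 1). Among those above it, the folds were 10.03 (2 against 2) and 7.50 (1 against 3). For Klf9 the folds were 2.08 and 2.01 for the injection and 2.16 and 1.32 for Ctrl over Mut. With the side of this threshold as a covariate, the fall of Hr in Mut was -3.38 with an adjusted p of 0.0658 (edgeR).

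The share of counts on genes longer than 100 kb ran from 24.5% to 39.96%. The PTU mouse and the PTU_TH mouse with the largest shares, PTU replicate 5 at 38.9% and PTU_TH replicate 2 at 39.96%, had the lowest Klf9 levels of their groups, 24.3 and 40.9 CPM. PTU replicate 5 also had the lowest Hr level of its group, 2.52 CPM, whereas Hr in PTU_TH replicate 2, at 44.9 CPM, lay within the narrow range of its group. Ctrl replicate 1, with the largest share in Ctrl at 39.7%, had the lowest Klf9 level there, 34.2 CPM. Mut replicate 1, with the largest share in Mut at 36.7%, did not: its Klf9 level of 22.5 CPM was above that of replicates 3 and 4. With this share as a covariate, an alternative chosen after seeing the data, Klf9 rose by 1.03 on the log2 scale after the injection, with an adjusted p of 3.38e-06 (edgeR). That fit called 1010 of 15288 genes, against 43 without the covariate. In Mut the same covariate left Klf9 uncalled, at -0.63 with an adjusted p of 0.152 (edgeR). What sets the share was not tested.

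**Figure D4:**
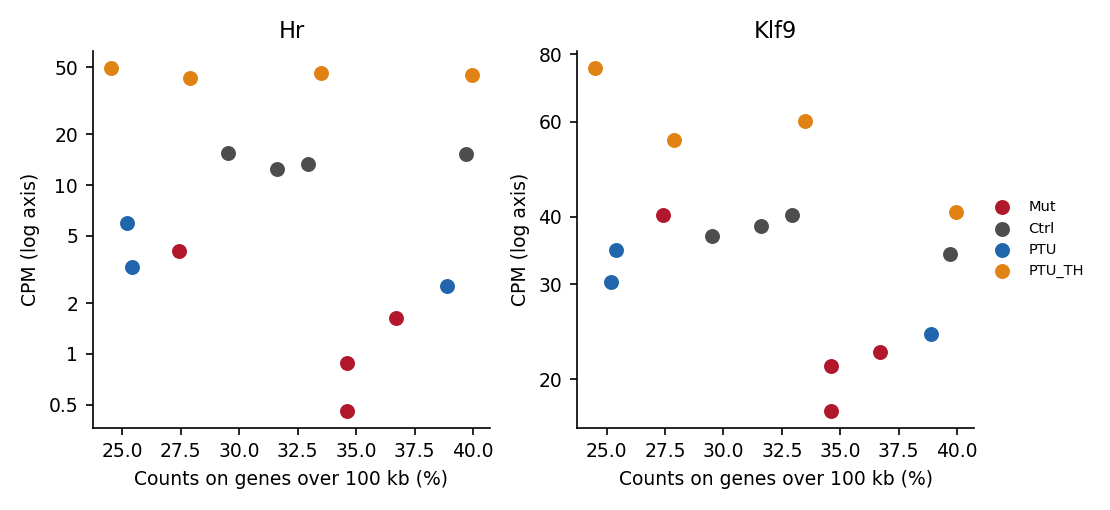
Hr and Klf9 levels (CPM, log axes) against the percent of counts on genes over 100 kb in each of the 15 libraries, coloured by group. In PTU_TH, Klf9 is lowest, at 40.9 CPM, in the library with the largest share (39.96%), while Hr stays between 43.1 and 49.5 CPM at every share.

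Other genes known to be induced by thyroid hormone were read beside the 2 members. The list holds 18 such genes other than Hr and Klf9, and 14 passed the filter on low counts. After the injection 4 rose and 0 fell (background 0.255% called higher and 0.0262% called lower), 12 of 14 were positive, and their median log2 fold change was 0.51, beside 0.00 over all genes, of which 49.5% were positive. Sema7a, which encodes a semaphorin, went from 35.0 ± 4.45 to 81.8 ± 14.1 CPM (log2 fold change 1.26, adjusted p 0.00689, edgeR). Flywch2 rose by 1.75 (adjusted p 0.0118), the clock-controlled transcription factor Dbp by 1.19 (0.0126) and the peroxisomal transporter Abcd2 by 0.62 (0.0448). Leaving out 1 library, Sema7a passed in 6 of 7 fits (0.0563 without PTU_TH replicate 1) and Abcd2 in 0 of 7. Dbp passed in 4 of 7, not without PTU_TH replicate 1 or 3 or PTU replicate 7 (highest adjusted p 0.0776), and Flywch2 in 4 of 7, not without PTU_TH replicate 1 or 3 or PTU replicate 6 (highest 0.0728). DESeq2 and limma-voom each called 6 of the 14, adding Itga7 and Gls2.

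In Mut 2 of the 14 fell and 0 rose (background 0.224% called lower and 0.124% called higher), 13 of 14 were negative, and the median was -0.66, beside 0.01 over all genes, of which 52.3% were positive. Itga7, an integrin subunit, fell from 76.7 ± 9.63 to 21.8 ± 1.07 CPM (log2 fold change -1.82, adjusted p 1.62e-04, edgeR) and passed in 8 of 8 omissions. Sema7a fell by 1.28 on the log2 scale (adjusted p 0.0259) and passed in 2 of 8, losing its call when any 1 of the Ctrl replicates, Mut replicate 1 or Mut replicate 4 was left out, with the highest adjusted p, 0.119, without Ctrl replicate 3. DESeq2 and limma-voom each called 3 of the 14 in Mut, adding Nefh. At an unadjusted p under 0.05 in edgeR there were 8 of the 14 in Mut and 7 after the injection. Over all genes 8.74% and 7.37% had such a p. Since the list was chosen with results of these data known, its direction is a description only.

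No other member of the family of Klf9 passed the test. Of 25 other Klf and Sp genes, 17 passed the filter, and 0 were called in either comparison (edgeR). At an unadjusted p under 0.05 there was 1 after the injection and 2 in Mut, where 7.37% and 8.74% of all genes had such a p, and DESeq2 and limma-voom also called 0. Klf3 had the smallest p in both, with log2 fold changes of 0.27 after the injection (adjusted p 0.616) and -0.27 in Mut (adjusted p 0.380). The family medians were 0.01 and 0.10. In Mut the next was Klf5, at 0.46 (adjusted p 0.412).

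Klf9 is also a glucocorticoid target, and 14 other genes induced by glucocorticoids were read beside it. None was called after the injection (13 tested, median 0.02) or in Mut (14 tested, median 0.00) with edgeR, DESeq2 or limma-voom. In edgeR 0 of them had an unadjusted p under 0.05 after the injection and 1 did in Mut. The smallest p values belonged to the clock gene Per1 after the injection (log2 fold change -0.26, adjusted p 0.861) and to the cell cycle inhibitor Cdkn1a in Mut (0.82, adjusted p 0.447).

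The receptors that Hr binds were read in the same fits. Besides Thra, none of the receptor genes tested was called in either comparison (4 tested after the injection and 6 in Mut, with edgeR, DESeq2 or limma-voom), and 0 besides Thra had an unadjusted p under 0.05 in edgeR. Thrb was at 372.1 ± 159.1 CPM in PTU_TH and 335.4 ± 193.4 in PTU, and at 468.5 ± 106.3 in Mut and 439.2 ± 141.3 in Ctrl.

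The genes next to Hr and Klf9 on the chromosome were read by position. Lgi3, a secreted protein gene that ends 13888 bases before Hr, fell in Mut from 262.8 ± 45.8 to 150.9 ± 14.97 CPM (SD, n = 4 each; log2 fold change -0.81 ± 0.13 SE, adjusted p 0.0227, edgeR). It passed in 2 of 8 omissions, not without Ctrl replicates 2, 3 or 4 or Mut replicates 1, 3 or 4, with the highest adjusted p, 0.102, without Ctrl replicate 4. After the injection Lgi3 was 0.63 ± 0.18 higher (adjusted p 0.361). Reep4, which lies between Lgi3 and Hr at 3279 bases from Hr, had log2 fold changes of 0.21 after the injection and -0.14 in Mut, and Nudt18, 4089 bases after Hr, had -0.45 and 0.23, none called. Smc5, 38317 bases after Klf9, had 0.04 in both. The other neighbours of Klf9 had few counts, and none of those tested was called; Trpm3, the most counted of them, had 0.19 and 0.17.

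**Figure D5:**
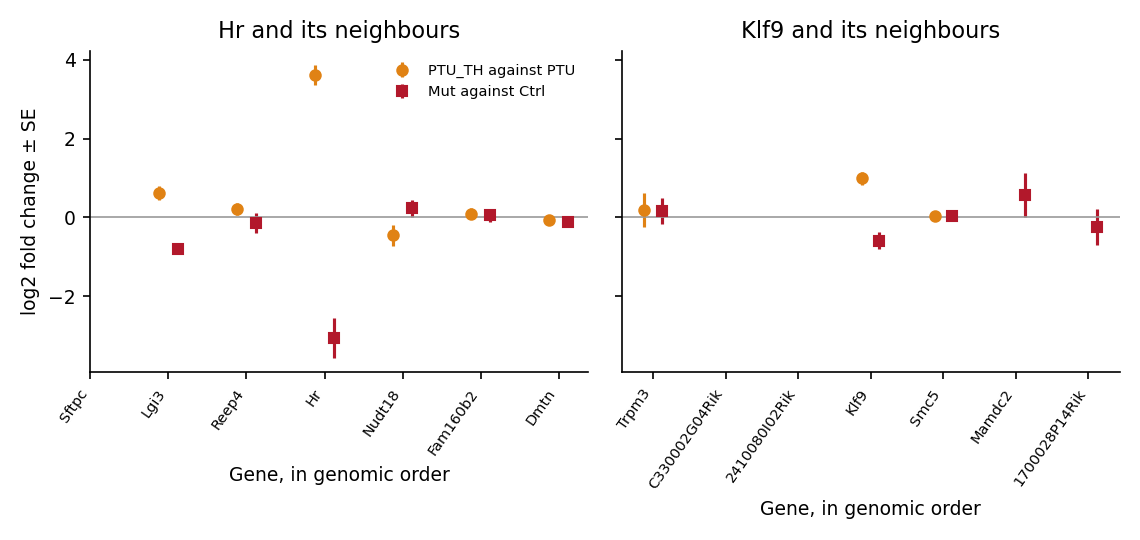
Log2 fold changes (± SE, edgeR) of Hr, Klf9 and the 3 nearest annotated genes on each side, in genomic order, after the injection (circles) and in Mut (squares); genes with too few counts have no point. Hr stands out at 3.61 and -3.06, Lgi3 is at 0.63 and -0.81, and Smc5 is at 0.04 in both comparisons.

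The genes most like each member were ranked by the root mean square (RMS) difference of log2(CPM + 1), centred on each set of tables, over the 15 libraries and 9967 genes. For Hr they were Cacnb3, a calcium channel subunit (RMS 0.76), Tesc, a calcium-binding protein (0.91), Sema7a (0.93), the DNA repair enzyme Ung (0.95) and Rgcc (0.95). All had smaller changes than Hr. Because likeness was ranked over these same libraries, their shared direction follows from the selection, and their calls are a description only. Cacnb3 rose to 97.05 ± 4.20 CPM in PTU_TH (SD, n = 4; log2 fold change 1.75, adjusted p 0.00251, edgeR) and fell from 63.5 ± 16.7 in Ctrl to 20.7 ± 3.87 in Mut (-1.64, adjusted p 0.00708). Tesc rose by 1.55 (adjusted p 0.00251) and fell by 1.87 in Mut (adjusted p 0.0227). Ung was not called in Mut (-2.02, adjusted p 0.145, edgeR). Leaving out 1 library, Cacnb3 passed in 7 of 7 and 7 of 8 fits (0.0505 without Mut replicate 1) and Tesc in 7 of 7 and 3 of 8, not without Ctrl replicates 2, 3 or 4 or Mut replicates 1 or 4 (highest adjusted p 0.0908).

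For Klf9 the closest genes were Gpcpd1 (RMS 0.20), Ccdc184 (0.21), Pcp4l1 (0.23), Klhl33 (0.24) and the carbonic anhydrase gene Car7 (0.24). They were picked in the same way, so their calls too are a description only. Pcp4l1 was called in neither comparison (adjusted p 0.614 after the injection and 0.484 in Mut, edgeR). Klhl33 and Car7 were not called in Mut (adjusted p 0.735 and 0.881, edgeR). Gpcpd1, an enzyme of choline lipid metabolism, had log2 fold changes of 0.84 after the injection (adjusted p 0.141, edgeR) and -0.76 in Mut (adjusted p 0.0467), and Klhl33 rose by 1.41 after the injection (adjusted p 0.00648). The Gpcpd1 call in Mut held in 2 of 8 omissions, not without Ctrl replicates 2, 3 or 4 or Mut replicates 1, 3 or 4, with the highest adjusted p, 0.188, without Ctrl replicate 4. Klf9 ranked 30 among the genes most like Hr, and Hr ranked 9959 of 9967 for Klf9, at an RMS of 1.13. This measure reads size as well as direction, and Klf9 lies 0.48 from a flat line, less than the 1.52 of Hr.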

How the data were processed

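RNA of sorted nuclei from 15 mouse cortices was counted per gene by the authors, and the deposited values are whole-number read counts. Per the submitters' processing notes, the tools were Bowtie2 2.5.3 and HTSeq, with builds mm10 and GRCm38; for annotation, strand setting and filters the sources used here give nothing. All 15 tables hold 1 count column, and 0 columns belong to other series. The notes give no role for each tool; Bowtie2 does not split reads over introns, so a genome alignment with it would lose reads over exon junctions.

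From these counts, edgeR 4.0.16 (R 4.3.3) was run with TMM scaling, filterByExpr at a minimum count of 10, a robust quasi-likelihood fit and Benjamini-Hochberg adjustment over all genes, with calls at an adjusted p under 0.05. Each comparison used its own groups. CPM and RPKM use plain library totals and GENCODE M21 exon lengths. SE is the fold change over the root of F. Counting error for the levels comes from Poisson counts. Libraries are separate mice, as each came from an individual cortex.

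Named genes were Hr, Klf9, Thra, per list up to 4 called members or the 2 of smallest p, the 3 nearest genes on each side, and the 5 most alike. The members and lists were chosen with earlier results of these data known. The steps were tested on simulated data. Alternatives were DESeq2 1.42.0, limma 3.58.1, other scalings, filters, covariates, a replicate block and leaving out each library. The result of 1 further gene list is not reported here.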

Additional observations from a re-analysis of the deposited data

How the results depend on the processing

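The rise of Hr after the injection passed under all 9 other settings and 7 omissions of 1 library (log2 fold change 3.42 to 4.00). Klf9 there moved past the threshold in 5 of 9 other settings. These were DESeq2 (1.00), no filter (1.00), limma-voom (0.95), the Y-linked covariate (1.03) and the long gene share (1.03, chosen after seeing the data). Its log2 fold change ranged from 0.89 to 1.09 over omissions. Hr in Mut lost its call with the Y-linked covariate (-3.38) and ranged from -3.83 to -2.73 over omissions. Klf9 in Mut passed with limma-voom (-0.81) and ranged from -0.86 to -0.46. With limma-voom, PTU against Ctrl passed for Klf9 (-0.34), and Mut against PTU passed for Hr (-1.93) and Klf9 (-0.46); over omissions Hr in Mut against PTU ranged from -1.91 to -0.75. The sum of the 2 changes of Hr reversed with limma-voom (-0.15) and without Mut replicate 2 (-0.24), and ranged from -0.24 to 0.93. The Hr to Klf9 ratio in Mut against Ctrl was -2.53 with a pseudocount of 0.25. The cause of these shifts was not tested.

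Counts of called genes moved by more than 1.5 times. After the injection 43 genes were called, against 243 with DESeq2, 162 with limma-voom, 335 with the Y-linked covariate, 1010 with the long gene share and 5 to 29 over omissions. In Mut 59 were called, against 358 with DESeq2, 331 with limma-voom, 196 in 1 fit of all groups, 90 with a 1 CPM filter, 31 with the Y-linked covariate, 210 with the long gene share and 11 to 103 over omissions. PTU against Ctrl went from 2804 to 5620 and Mut against PTU from 2464 to 5782 with limma-voom, and the former ranged from 2061 to 4283 over omissions. The sum of changes went from 3 to 12 with DESeq2 and to 0 with RLE scaling.

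Replicate numbers of Ctrl and Mut were checked for pairing over 10936 genes. Same-numbered libraries correlated at 0.30, 0.39, -0.08 and 0.19, and 3 of 4 correlated best with their own number. The labels state no pairing, and 4 correlations cannot settle whether equal numbers mark paired mice. With the replicate block, Hr in Mut was -3.37 (adjusted p 0.0136, edgeR), Klf9 was -0.65 (0.232) and 82 genes were called. For PTU_TH against Ctrl the block gave 1.69 for Hr and 0.58 for Klf9. Those groups differ in treatment and set of tables. Their same-numbered libraries correlated at 0.28, -0.45, -0.12 and 0.19, and only replicate 4 correlated best with its own number. PTU and PTU_TH share no numbers. Depth limits Hr most in Mut, where 15 to 91 counts carry it.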

Other observations

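Klf8, another member of the Klf family, was lower in both groups of the PTU diet than in Ctrl, in comparisons where treatment and set of tables cannot be told apart: 7.32 ± 1.16 CPM in Ctrl (SD, n = 4), 1.71 ± 0.102 in PTU (n = 3) and 1.52 ± 0.242 in PTU_TH (n = 4). The log2 fold changes were -2.13 (adjusted p 1.66e-04, edgeR) and -2.29 (adjusted p 1.93e-05). Of 17 other Klf and Sp genes than Klf9 tested, 1 was called lower in each comparison. Over all genes 12.6% were called lower in PTU against Ctrl and 2068 of 15814 in PTU_TH against Ctrl. Both comparisons use the same Ctrl mice. Within the sets it was -0.13 after the injection and 0.10 in Mut, neither called. Tac1, a neuropeptide gene on the Pv neuron marker list, was higher in Mut than in Ctrl, at 237.0 ± 82.4 against 103.5 ± 13.4 CPM (log2 fold change 1.17, adjusted p 0.0243, edgeR). Tac1 passed in 1 of 8 omissions of 1 library, only without Mut replicate 2, and its adjusted p was 0.120 both without Ctrl replicate 4 and with the Y-linked covariate.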
